A study of Rattus norvegicus with 70 samples.

Results

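The genes described here carry out gluconeogenesis, the breakdown of amino acids and the urea cycle. They were chosen as a list of 43 gene symbols, of which 40 stand in the deposited tables among 19441 genes. Prodh, Aldh4a1 and Cth are not listed under those symbols; Prodh1, an older symbol of Prodh in RefSeq, is given separately and not counted. Male Wistar-Kyoto (WKY) rats, an inbred strain, breathed air or 0.8 ppm ozone for 4 h, and poly(A)-selected RNA of the liver, lung, adrenal, hypothalamus, muscle and adipose tissue was sequenced. Liver, lung and hypothalamus each had 6 air and 6 ozone libraries, adrenal 5 and 6, adipose 5 and 5, and muscle 6 and 5. No genotype or drug distinguished the groups, and all animals were of the same strain and sex. Age, feeding state and the interval between exposure and sampling were not given in the sources used here. The comparison asks how these genes differed between ozone-exposed and air-exposed rats, first in liver and then in the other tissues.

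Gluconeogenesis makes glucose from lactate, glycerol and the carbon skeletons of amino acids, and in mammals the liver is its main site. Aminotransferases and amino acid dehydratases strip nitrogen from amino acids and leave carbon that can enter the pathway, while the urea cycle of periportal hepatocytes disposes of the ammonia that is freed. Glucagon, acting through cyclic AMP and the factor CREB, and glucocorticoids are the hormones best known for inducing these genes, and insulin opposes them.

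In liver, 18 of the 40 genes rose under ozone and 1 fell, that is 47.5% called at an adjusted p under 0.05 in limma. Of all 12573 genes tested in liver 11.5% were called, 6.74% as risen and 4.72% as fallen. The list was chosen with earlier results of these data known, so its shares and median beside those of all genes are a description and no test. The steepest rises were of Sds, Ppargc1a, Got1, Slc25a15, Tdo2 and Tat, which ran from 3.48-fold to 8.05-fold. Within the 40 genes, all 5 of methionine and homocysteine metabolism rose, and 5 of 7 genes of the urea cycle and mitochondrial carriers did. Pck1, which encodes the enzyme that commits carbon to gluconeogenesis, was at 53049 ± 10226 in air and 56445 ± 8373 under ozone (mean ± SD, n = 6 each, adjusted p = 0.790). Values are gene counts that the authors scaled by a factor per library, and log2 fold changes are ozone minus air on log2(value + 1), with their standard error (SE). The median log2 fold change of the 40 genes was 0.49, against 0.00 over all genes tested. In 13 of the 40 genes the air and ozone libraries did not overlap, while 7.62% of all genes tested in liver were separated in this way. These are whole-tissue samples, so that fewer cells of a type and less RNA per cell cannot be told apart.

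Promoter windows are shown for the 4 risen genes with the lowest adjusted p and for Pck1, because the group holds genes that moved strongly and a gene of the same pathway that did not pass. Each is the 250 bases before the annotated start, 5′ to 3′ on the gene's strand, from RefSeq on assembly GRCr8, which is not the rn6 assembly the submitters' processing notes name. Capitals mark the cyclic AMP response element, TGACGTCA, or its shorter form TGACG read on either strand. Slc25a15 lies at chr16:76336620-76336869 (+), Got1 at chr1:252329872-252330121 (-), Tdo2 at chr2:169585587-169585836 (-), Ppargc1a at chr14:63634058-63634307 (+) and Pck1 at chr3:182348322-182348571 (+).
Slc25a15: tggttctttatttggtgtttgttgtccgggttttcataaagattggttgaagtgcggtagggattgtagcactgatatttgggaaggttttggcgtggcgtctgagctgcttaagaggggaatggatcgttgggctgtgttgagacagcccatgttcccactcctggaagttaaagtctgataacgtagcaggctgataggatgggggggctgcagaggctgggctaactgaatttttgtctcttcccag
Got1: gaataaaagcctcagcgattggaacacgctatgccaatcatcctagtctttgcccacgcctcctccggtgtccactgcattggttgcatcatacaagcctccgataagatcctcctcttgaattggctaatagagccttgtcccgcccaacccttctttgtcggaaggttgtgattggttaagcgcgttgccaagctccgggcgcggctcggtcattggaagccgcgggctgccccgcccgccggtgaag
Tdo2: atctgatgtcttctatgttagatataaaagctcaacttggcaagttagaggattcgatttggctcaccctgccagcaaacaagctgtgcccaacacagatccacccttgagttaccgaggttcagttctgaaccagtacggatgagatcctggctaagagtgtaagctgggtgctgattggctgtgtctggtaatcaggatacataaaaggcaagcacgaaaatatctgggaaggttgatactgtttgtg
Ppargc1a: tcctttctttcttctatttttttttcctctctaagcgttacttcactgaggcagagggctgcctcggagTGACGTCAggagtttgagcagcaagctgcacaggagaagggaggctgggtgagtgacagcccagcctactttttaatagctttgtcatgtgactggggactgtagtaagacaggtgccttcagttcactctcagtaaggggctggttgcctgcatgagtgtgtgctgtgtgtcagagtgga
Pck1: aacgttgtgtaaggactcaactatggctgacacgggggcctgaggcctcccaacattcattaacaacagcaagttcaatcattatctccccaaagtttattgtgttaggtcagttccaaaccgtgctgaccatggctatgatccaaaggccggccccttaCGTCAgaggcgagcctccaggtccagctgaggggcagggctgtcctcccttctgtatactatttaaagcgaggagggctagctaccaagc
The full TGACGTCA lay 181 to 174 bases before the Ppargc1a start, and the shorter form lay 90 to 86 bases before the Pck1 start on the opposite strand. The other 3 windows held neither form. Of the 40 genes, 34 were matched to a promoter window. The full element stood in 2 of these 34 windows, those of Ppargc1a and Slc25a25, and in 1.7% of 27457 promoter windows of all genes. TGACG, which every TGACGTCA contains, stood in 6 of the 34 windows and in 19% of all. GTAAACA, a motif of FOXO and FOXA factors, was in 0 of 34 windows and 3.25% of all, and AGAACA, a short form of the glucocorticoid receptor site, was in 3 of 34 and 17.1% of all. Both strands were searched for each motif. A match is a description of the letters and says nothing of binding. The windows rest on 1 annotated start per symbol, and whether liver uses that start, for Slc25a15 or any other gene, was not tested. A window without a motif therefore does not show that the gene's promoter lacks it.

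Among the gluconeogenic genes, Ppargc1a and G6pc rose and the 3 others did not pass the test. Ppargc1a encodes the coactivator PGC-1α, which drives transcription of gluconeogenic genes with HNF4α and FOXO1. Its liver value ran from 32.7 to 89.9 in air (median 49.0) and from 181 to 542 under ozone (median 406). The lowest ozone library stood above the highest air library, and the log2 fold change was 2.88 ± 0.29 (SE, adjusted p = 1.54e-05). G6pc encodes the catalytic subunit of glucose-6-phosphatase, which releases free glucose from the hepatocyte. G6pc ran from 4964 to 15286 in air (median 8532) and from 13727 to 26402 under ozone (median 20176), with a log2 fold change of 1.18 ± 0.24 (adjusted p = 0.00486). The highest air library, at 15286, lay inside the ozone range. Pck1 ran from 41159 to 70322 in air and from 40917 to 64023 under ozone, so that the air range covered nearly all of the ozone range; its log2 fold change was 0.10 ± 0.15. Fbp1, the bisphosphatase that reverses phosphofructokinase, was at 5638 ± 1773 and 6169 ± 802 (log2 fold change 0.21 ± 0.23, adjusted p = 0.689). Pc, which makes oxaloacetate from pyruvate, was at 6037 ± 844 and 5567 ± 761 (log2 fold change -0.12 ± 0.12, adjusted p = 0.669).

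Of 7 genes that move amino groups or handle glutamate and glutamine, Got1 and Gpt2 rose. Got1 encodes the cytosolic aspartate aminotransferase, which links aspartate and oxaloacetate. Its values ran from 2448 to 7215 in air (median 4092) and from 22453 to 37813 under ozone (median 27481). All ozone libraries were at least 3 times the highest air library, and the log2 fold change was 2.85 ± 0.25 (adjusted p = 4.95e-06). The mitochondrial enzyme of the same reaction, encoded by Got2, was at 3433 ± 395 and 3590 ± 429 (log2 fold change 0.06 ± 0.11, adjusted p = 0.824). Gpt2, the mitochondrial alanine aminotransferase, ran from 1653 to 3002 in air (median 2734) and from 2934 to 4472 under ozone (median 3674), and the groups overlapped (log2 fold change 0.57 ± 0.17, adjusted p = 0.0392). The Gpt2 call was lost on leaving out air 2 or 6 or ozone 13, 14, 16 or 20, with an adjusted p of up to 0.0908, and with no filter on low values (0.0525). Its cytosolic counterpart Gpt was at 2276 ± 579 and 3268 ± 779 (log2 fold change 0.53 ± 0.18, adjusted p = 0.0825). Gls2, the liver glutaminase, had a log2 fold change of 0.46 ± 0.16 (adjusted p = 0.0788). Glud1, glutamate dehydrogenase, and Glul, glutamine synthetase, had log2 fold changes of 0.17 and 0.12 and did not pass.

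Among the genes of the urea cycle and 2 mitochondrial carriers, Slc25a15, Asl, Arg1, Ass1 and Cps1 rose, while Otc and Slc25a25 did not pass. Slc25a15 encodes the mitochondrial ornithine carrier, which returns ornithine to the matrix for the next turn of the cycle. It ran from 9561 to 15325 in air (median 11193) and from 54383 to 73948 under ozone (median 57384), with a log2 fold change of 2.39 ± 0.13 and the lowest adjusted p of the 40 genes in liver (1.31e-07). The spread within each group was small beside the gap between them. Asl, argininosuccinate lyase, ran from 1209 to 4736 in air (median 3412) and from 6681 to 10484 under ozone (median 7220), without overlap (log2 fold change 1.37 ± 0.28, adjusted p = 0.0054). Arg1, the arginase that releases urea, ran from 8667 to 23689 in air (median 12845) and from 24234 to 46962 under ozone (median 28288). The highest air and lowest ozone libraries of Arg1 nearly met, and the log2 fold change was 1.18 ± 0.26 (adjusted p = 0.00907).

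Ass1, argininosuccinate synthase, ran from 7897 to 19404 in air (median 16214) and from 20967 to 39060 under ozone (median 22435), with a log2 fold change of 0.78 ± 0.22 (adjusted p = 0.0301). Cps1, carbamoyl phosphate synthetase and the entry step of the cycle, ran from 102795 to 136416 in air (median 111445) and from 128974 to 176550 under ozone (median 155648), with a log2 fold change of 0.43 ± 0.12 (adjusted p = 0.0291). Air 1, the highest of the air libraries for Cps1, overlapped the ozone range, and the other 5 air libraries did not. Both calls lay near the threshold and were lost in some of the 12 fits that each left out 1 library. Ass1 was lost without air 6 or ozone 14, 18 or 20 (adjusted p up to 0.0657). Cps1 was lost without air 2, 6, 7 or 10 or ozone 13, 14, 16 or 20 (adjusted p up to 0.0711). Over these fits the log2 fold change ran from 0.62 to 0.88 for Ass1 and from 0.38 to 0.48 for Cps1. Otc, ornithine transcarbamylase, was at 11445 ± 7015 in air and 8811 ± 2140 under ozone (log2 fold change -0.26 ± 0.27, adjusted p = 0.667). Air 1 held 25610 of Otc, and the other 5 air libraries lay between 6927 and 9857. Slc25a25, a carrier of ATP-magnesium across the inner mitochondrial membrane, was at 2121 ± 1201 and 5091 ± 2962 (log2 fold change 1.24 ± 0.48, adjusted p = 0.126), with wide scatter in both groups.

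**Figure D1:**
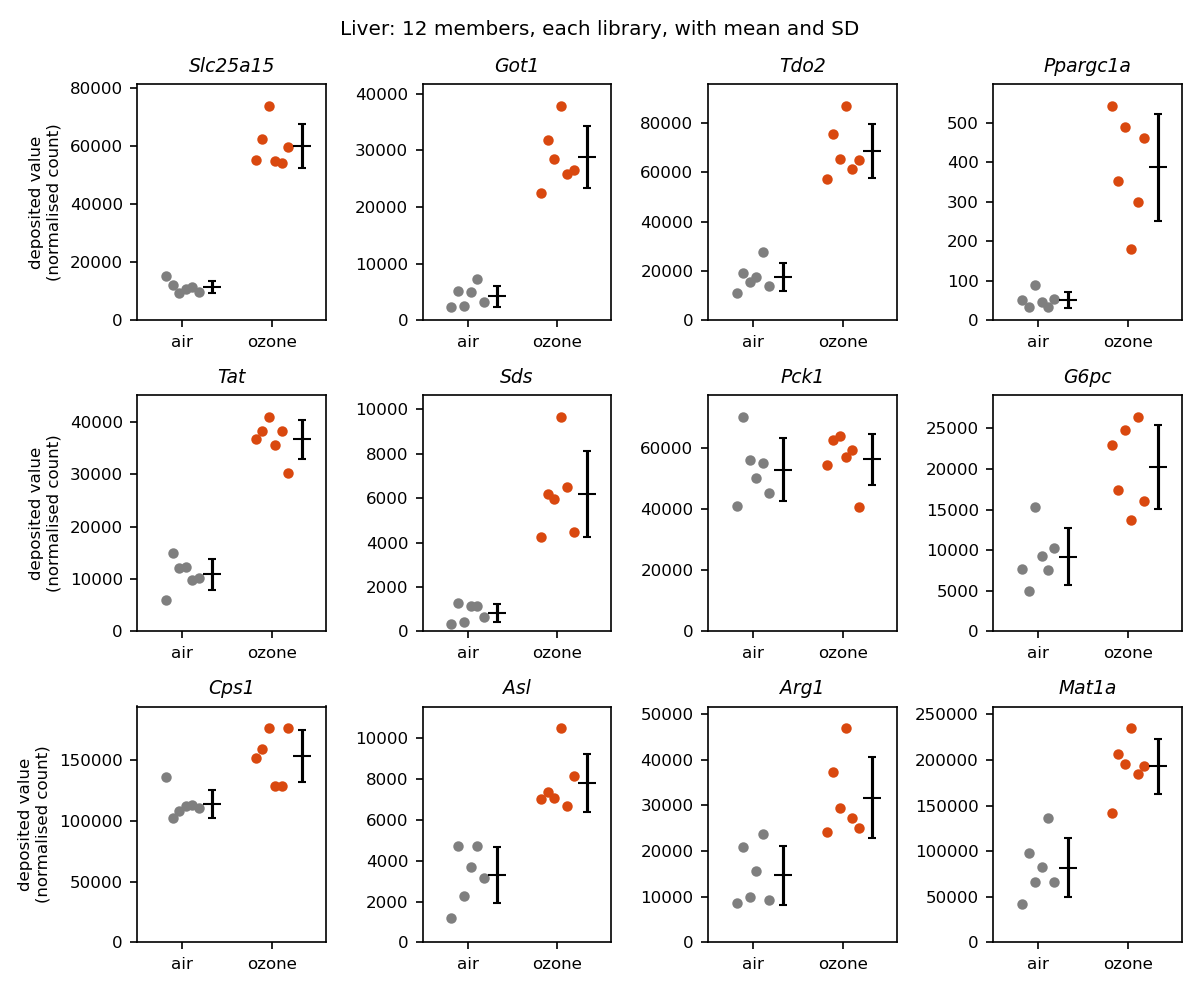
Deposited values of 12 of the genes in each liver library (points; grey air, orange ozone), with mean and SD in black; each panel's vertical axis is the normalised count and starts at 0. The 6 ozone libraries of Slc25a15, from 54383 to 73948, stand apart from the air libraries, whereas those of Pck1 lie among them.

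The tyrosine and tryptophan pathways each rose at the entry step. Tat, tyrosine aminotransferase, ran from 5956 to 14914 in air (median 11104) and from 30144 to 40919 under ozone (median 37444), with a log2 fold change of 1.80 ± 0.18 (adjusted p = 1.83e-05). Tdo2, tryptophan 2,3-dioxygenase, ran from 11068 to 27675 in air (median 16604) and from 57195 to 86753 under ozone (median 64926), with a log2 fold change of 2.02 ± 0.19 (adjusted p = 9.91e-06). Neither gene's groups overlapped; both are textbook examples of liver enzymes induced by glucocorticoids. The later steps of tyrosine breakdown, Hpd, Hgd and Fah, had log2 fold changes of 0.18, 0.18 and -0.14 and did not pass. In the kynurenine branch, Kmo, the hydroxylase that makes 3-hydroxykynurenine, was the 1 gene of the 40 that fell. Kmo ran from 949 to 1416 in air (median 1363) and from 761 to 1069 under ozone (median 833), a log2 fold change of -0.57 ± 0.13 (adjusted p = 0.00804). Air 9 alone brought the groups into overlap. Afmid, Kynu and Haao, which flank Kmo in the branch, had log2 fold changes of 0.33, -0.23 and -0.13 and did not pass.

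Of 3 genes of serine, histidine and lysine breakdown, Sds and Aass rose, Sds by the largest factor of the 40 genes. Sds encodes serine dehydratase, which turns serine into pyruvate and ammonia. It ran from 345 to 1298 in air (median 892) and from 4264 to 9658 under ozone (median 6075), without overlap (log2 fold change 3.01 ± 0.32, adjusted p = 3.18e-05). Aass, which opens the saccharopine pathway of lysine, ran from 3357 to 5507 in air (median 3781) and from 7610 to 13505 under ozone (median 10224). No ozone library of Aass reached down to the air range (log2 fold change 1.35 ± 0.16, adjusted p = 6.80e-05). Hal, histidine ammonia-lyase, was at 3546 ± 1172 and 5244 ± 722 (log2 fold change 0.64 ± 0.22, adjusted p = 0.0817). None of 3 branched-chain genes passed: Bcat2, Bckdha and Bckdhb had log2 fold changes of 0.01, 0.13 and 0.41, and adjusted p of 0.993, 0.698 and 0.150. Bcat2 was at 33.2 ± 14.0 in air livers and 34.7 ± 16.7 in ozone livers. Oat, ornithine aminotransferase, had a log2 fold change of 0.16 ± 0.16, and Prodh1, proline dehydrogenase, was at 1673 ± 445 and 2195 ± 505 (log2 fold change 0.41 ± 0.19, adjusted p = 0.215).

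All 5 genes of methionine and homocysteine metabolism rose. Mat1a makes the methyl donor S-adenosylmethionine in hepatocytes. It ran from 42544 to 136898 in air (median 74392) and from 142111 to 235153 under ozone (median 194770), a log2 fold change of 1.31 ± 0.23 (adjusted p = 0.00164). Bhmt, which remethylates homocysteine with betaine, ran from 6860 to 43740 in air (median 30683) and from 57649 to 119402 under ozone (median 74023), with a log2 fold change of 1.67 ± 0.37 (adjusted p = 0.00904). Air 1 was the lowest air library for Bhmt and ozone 18 the highest of the ozone libraries. Cbs, which starts the conversion of homocysteine to cysteine, ran from 1538 to 3335 in air (median 2547) and from 3427 to 5271 under ozone (median 3972), with a log2 fold change of 0.77 ± 0.20 (adjusted p = 0.0236). The Mat1a, Bhmt and Cbs groups did not overlap.

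Ahcy, S-adenosylhomocysteine hydrolase, ran from 10161 to 21149 in air (median 13499) and from 17922 to 30129 under ozone (median 20685), and Gnmt, glycine N-methyltransferase, from 490 to 939 (median 816) and from 773 to 4517 (median 1395). Their groups overlapped, with log2 fold changes of 0.64 ± 0.18 (adjusted p = 0.0343) for Ahcy and 1.13 ± 0.34 (adjusted p = 0.0447) for Gnmt. On leaving out a single library, Ahcy was lost without air 6, 7 or 10 or ozone 14, 16, 18 or 19 (adjusted p up to 0.0820), and Gnmt without air 1, 2, 6, 7 or 10 or ozone 14, 16 or 19 (adjusted p up to 0.0927). Gnmt was also lost with no filter on low values and with array weights (adjusted p up to 0.0576). Cbs was lost without air 6 or 10 or ozone 14 or 18 (adjusted p up to 0.0532). Slc25a15, Got1, Tdo2, Ppargc1a, Tat, Sds, Aass, Mat1a, G6pc, Asl, Bhmt, Arg1 and Kmo passed in all 12 of these fits.

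**Figure D2:**
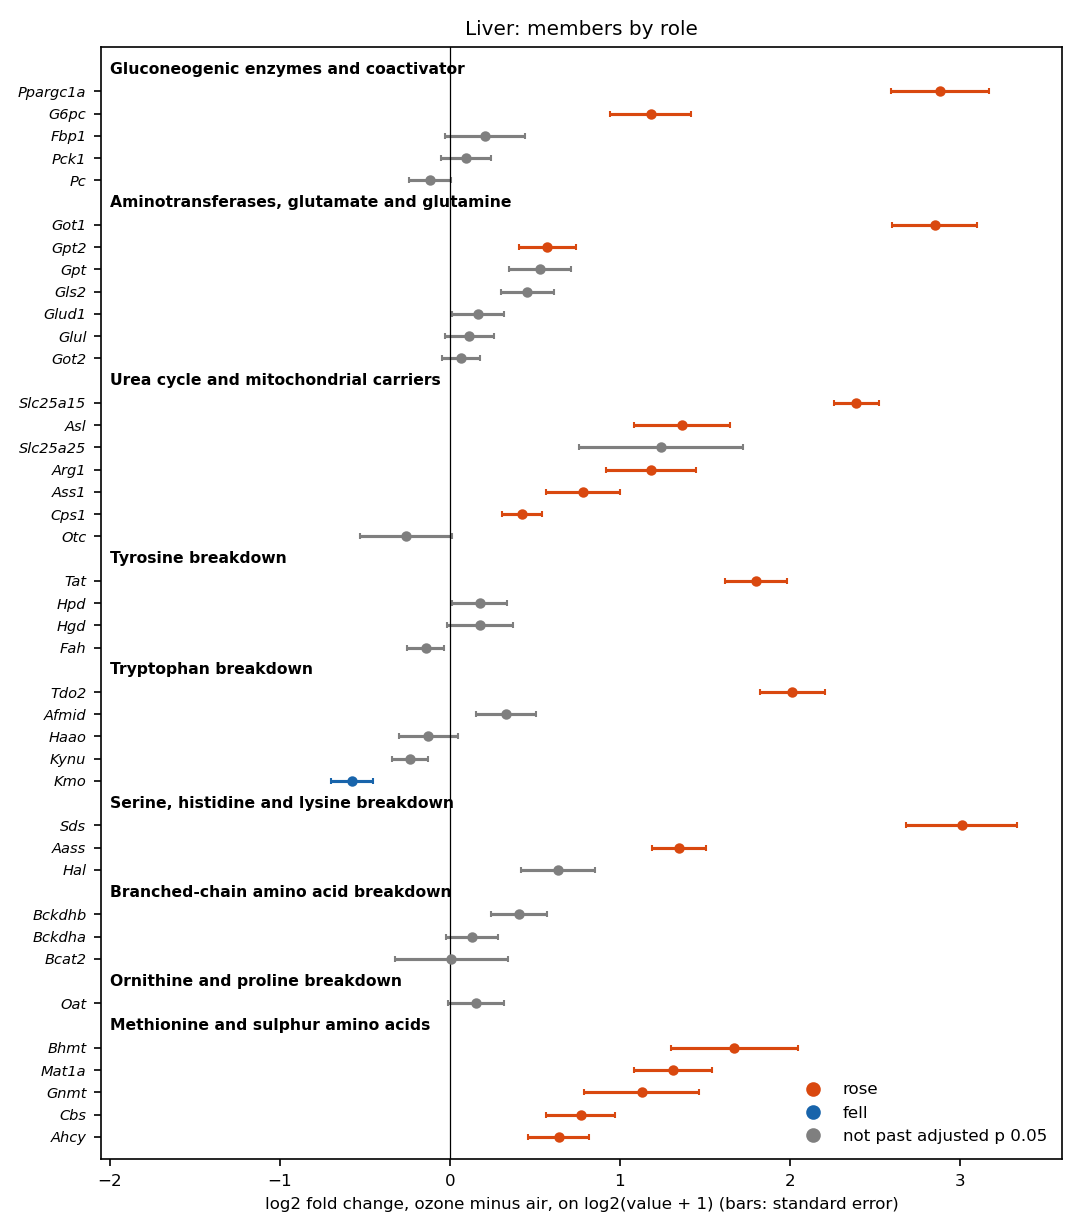
Log2 fold change, ozone minus air, of the 40 genes in liver, grouped by role (points, with bars of 1 SE; orange rose, blue fell, grey not past an adjusted p of 0.05). The methionine group lies wholly to the right of 0, from 0.64 to 1.67, while Pck1, Got2 and Otc lie near or left of it.

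Summed over the list, the 40 genes took 3.44% ± 0.394 of the recovered reads of air livers and 6.23% ± 0.366 of those of ozone livers (SD, n = 6 each). The air range, 3.08% to 4.16%, lay below the ozone range, 5.67% to 6.80%. Some libraries stood at the edge of their group for many of the genes. Air 1 was the lowest air library for 23 of the 40 genes and air 9 the highest for 21, and ozone 13 was the lowest ozone library for 18 and ozone 18 the highest for 22. Without air 1 and ozone 18 together, a fit added after the data were seen, 16 of the 19 calls stood and Gnmt, Ahcy and Cbs did not pass.

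The liver libraries carried the markers of liver. Of 10 hepatocyte markers 0 passed limma's test, at an adjusted or an unadjusted p under 0.05, and their summed value ran from 1583470 to 2346650 in air and from 1875100 to 2491550 under ozone. None of 6 cholangiocyte, 8 Kupffer cell, 8 stellate cell or 7 sinusoidal endothelial markers passed either, by the adjusted or the unadjusted p. Of 12 genes known from periportal hepatocytes 4 rose (Sds, Arg1, Ass1 and Cps1, all genes of the list above) and Cdh1 fell. Of 11 perivenous genes tested, Cyp7a1, the rate-limiting enzyme of bile acid synthesis, rose (log2 fold change 1.54 ± 0.47, adjusted p = 0.0493). Of the few blood, adrenal, pancreas and adipose markers tested in liver, 1 adipose marker, Cidec, rose (log2 fold change 0.68). Reads of 6 lung markers also stood in some liver libraries: their sum ran from 22.5 to 9042 in air and from 14.8 to 4878 under ozone, with air 1 the highest. The liver count without air 1 was 18 genes, against 19.

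Other genes of the same pathways were read from related lists, whose counts stand beside the 11.5% of all genes tested in liver that were called (6.74% risen, 4.72% fallen). Of 23 other genes of glucose output tested, 4 rose and Aqp9 fell. The risen genes with the lowest adjusted p were Slc25a22, a mitochondrial glutamate carrier, from 974 ± 257 to 3660 ± 538 (log2 fold change 1.94 ± 0.17, adjusted p = 6.75e-06), and Lpin1, from 610 ± 401 to 2726 ± 1123 (2.23 ± 0.38, adjusted p = 0.00136). Gpd1, glycerol-3-phosphate dehydrogenase, rose by 0.41 ± 0.11. Aqp9, the glycerol channel of hepatocytes, went from 3382 ± 461 to 2269 ± 337 (log2 fold change -0.58 ± 0.13, adjusted p = 0.00804).

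Of 29 regulators of the pathway tested, 7 rose and 3 fell (of all genes 6.74% and 4.72%), with a median log2 fold change of 0.14. The 3 that fell were Onecut1 (log2 fold change -3.28 ± 0.72), Nr3c1, the glucocorticoid receptor (-0.87 ± 0.25), and Adcy9 (-0.71 ± 0.18). Foxo1, the factor that insulin signalling keeps out of the nucleus, went from 413 ± 91.2 to 1701 ± 630 in liver (log2 fold change 1.97 ± 0.25, adjusted p = 1.50e-04). Igfbp1, a FOXO1 target, went from 448 ± 129 to 1353 ± 330 (1.61 ± 0.22, adjusted p = 2.58e-04). Hnf4a, a factor that maintains hepatocyte identity, rose by 0.71 ± 0.13, and Ppargc1b, the relative of Ppargc1a, by 2.78 ± 0.45. The list of glycolysis and pyruvate oxidation genes had 12 tested, of which 2 rose and 1 fell (of all genes 6.74% and 4.72%). Pfkfb1 and Pfkfb3, which set the level of fructose 2,6-bisphosphate, rose by 0.81 ± 0.22 and 1.06 ± 0.26.

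Of 60 further amino acid breakdown genes 8 rose and 0 fell, so that 13.3% were called, close to the 11.5% of all genes called in liver, and the median log2 fold change was 0.08. Among those with the lowest adjusted p were Dbt, a subunit of the branched-chain ketoacid dehydrogenase, from 791 ± 40.3 to 1700 ± 216 (log2 fold change 1.09 ± 0.10, adjusted p = 9.36e-06), and Sardh, sarcosine dehydrogenase (0.89 ± 0.14). Of 11 genes of nitrogen disposal and amino acid uptake, 4 rose, against 6.74% of all genes. Slc16a10, a carrier of aromatic amino acids, went from 264 ± 38.0 to 1022 ± 210 (log2 fold change 1.94 ± 0.15, adjusted p = 2.33e-06), Slc38a4 from 19732 ± 1603 to 39247 ± 4307 (0.99 ± 0.11) and Slc38a2 from 1400 ± 414 to 4255 ± 1895 (1.53 ± 0.29). Both of the latter import neutral amino acids.

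**Figure D3:**
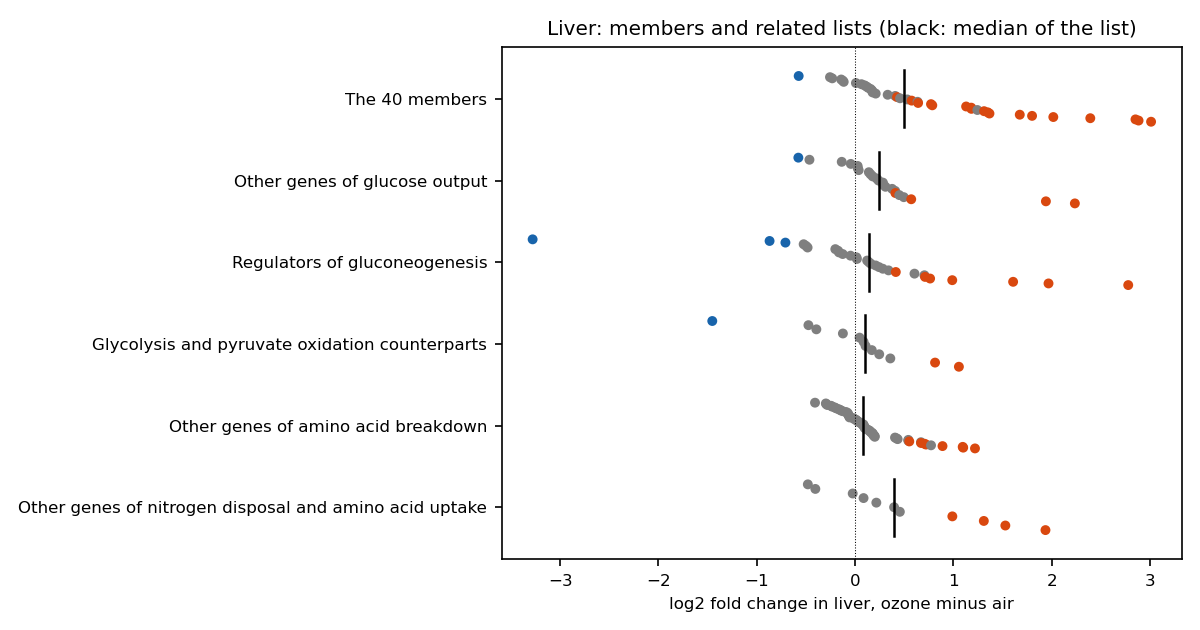
Log2 fold change in liver, ozone minus air, of each tested gene of the 40-gene list and of the 5 related lists (points; orange rose, blue fell, grey not past; black line, the median of the list). The median is 0.49 for the 40 genes and 0.08 for other genes of amino acid breakdown.

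In air, liver was the tissue with the highest level for 30 of the 40 genes, as CPM of each library's own recovered reads, and for 19 genes the liver level was at least 10 times the next tissue. The tables were normalised tissue by tissue, so levels across them are a description. Pck1 was at 3671 ± 543 CPM in liver and 3003 ± 1020 in adipose tissue, a difference within the spread. Ppargc1a was at 3.63 ± 1.59 in liver against 31.0 ± 11.4 in hypothalamus and 28.6 ± 8.52 in muscle. Got1 was highest in muscle, at 485 ± 107, with hypothalamus at 437 ± 45.4 and liver at 293. Got1 and Ppargc1a, among the genes that rose most in liver, were thus not at their highest there in air.

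In lung 36 of the 40 genes were tested, of which 2 rose and 2 fell. Of all 14828 genes tested there 17.7% were called, 9.51% as risen and 8.18% as fallen. In 1 of the 36 genes the groups did not overlap, against 9.54% of all. Glul ran from 3121 to 5775 in air lungs (median 4019) and from 9488 to 11795 in ozone lungs (median 11284), without overlap (log2 fold change 1.42 ± 0.12, adjusted p = 4.13e-06). Gpt ran from 372 to 579 in air and from 284 to 440 under ozone (log2 fold change -0.43 ± 0.12, adjusted p = 0.0240), and was lost without ozone 14 or ozone 19 (adjusted p up to 0.0558). The other calls were of low values: Cbs ran from 2.22 to 35.2 in air and from 25.2 to 48.9 under ozone, and Kynu from 10.8 to 76.6 and from 2.05 to 12.2. Kynu, counted among the 2 that fell, reached the minimum mean of 10 only through its air libraries. Its highest values, 76.6 and 46.2, were in air 8 and air 2, the lung libraries highest in hepatocyte markers, and the part of those markers was not tested. In the same lungs the summed markers of T and B lymphocytes ran from 755 to 1905 in air and from 403 to 745 under ozone, those of neutrophils from 685 to 885 and from 410 to 533, and 7 hypothalamus markers from 31.4 to 51.5 and from 105 to 186. Of the 8 lymphocyte markers tested 5 fell and of 4 neutrophil markers 3 fell; their part in the lung results was not tested. The lung count was 7 without air 10 and 2 without ozone 14, 19 or 20.

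In adrenal gland 37 genes were tested, of which 3 rose and 1 fell. Of all 14026 genes tested there 18.6% were called, 9.23% as risen and 9.38% as fallen. The groups did not overlap in 2 of the 37 genes, against 12.9% of all. Afmid, kynurenine formamidase, was at 266, 187, 172, 276 and 232 in the 5 air libraries and ran from 60.7 to 82.2 in the 6 ozone libraries, without overlap (log2 fold change -1.65 ± 0.16, adjusted p = 3.04e-05). Got1 was at 4454, 4104, 3240, 3694 and 4181 in air and ran from 5308 to 6541 under ozone, again without overlap (0.60 ± 0.11, adjusted p = 0.00314). Gls2 rose by 0.57 ± 0.15 (adjusted p = 0.0171) and Ahcy by 0.67 ± 0.21 (adjusted p = 0.0387), both with overlap. Summed sinusoidal endothelial markers (7 of 8 listed in the table) ran from 3897 to 4501 in air adrenals and from 4742 to 6072 in ozone adrenals, with 1 of 4 tested risen; their part was not tested. The Ahcy call was lost without air 2 or 6 or ozone 14, 15, 17, 19 or 20 (adjusted p up to 0.0825).

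Cps1, Tat, Tdo2, Arg1, G6pc and Mat1a, picked after their values were seen, were each highest in adrenal air 9 and air 11, the libraries highest in hepatocyte markers. Summed values of 10 hepatocyte markers ran from 969 to 28776 in air and from 958 to 10890 under ozone, with adrenal air 11 and air 9 the highest at 28776 and 16612. Cps1 was at 1544 and 1284 in those libraries and at 32.3 in air 8, the lowest of the air libraries in both. Lung showed the same order, with marker sums of 21969 in air 8 and 14755 in air 2, and 3899 or less elsewhere. Cps1 was at 1358 and 745 in those lung libraries and at 248 or less in the rest. In hypothalamus the highest sum, 34080, and the highest Cps1, 1398, were both in ozone 17. The part of these reads in the calls was not tested; without lung air 2 and air 8 together 5 genes were called in lung, and without adrenal air 9 and air 11 together 5 in adrenal, both fits added after the data were seen.

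**Figure D4:**
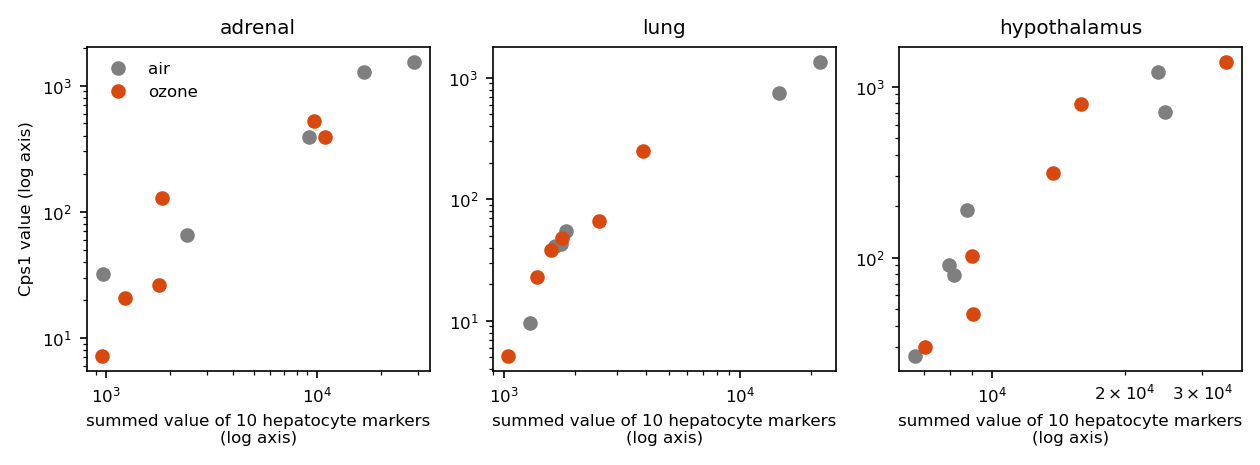
Cps1 value against the summed value of 10 hepatocyte markers in each adrenal, lung and hypothalamus library (points; grey air, orange ozone; both axes logarithmic). The libraries with the highest marker sum, such as adrenal air 11 at 28776, also hold the highest Cps1.

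In hypothalamus 37 genes were tested and 0 were called by limma, with 3 at an unadjusted p under 0.05. Of all 15217 genes tested there 1.41% were called, 0.789% as risen and 0.624% as fallen. In 0 of the 37 genes were the groups apart without overlap, against 2.15% of all. On the recovered reads edgeR called 0 and DESeq2 called 1, Gpt2. Ppargc1a, at its highest level in this tissue in air, had a log2 fold change of -0.19 there.

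In adipose tissue 26 genes were tested, of which 4 rose and 0 fell. Of all 14252 genes tested there 7.32% were called, 3.87% as risen and 3.45% as fallen. The groups did not overlap in 2 of the 26 genes, against 8.81% of all. Gpt2 was at 868, 912, 936, 1854 and 1991 in air and at 3352, 3200, 3932, 2269 and 2535 under ozone (log2 fold change 1.29 ± 0.26, adjusted p = 0.0116). Glul was at 17423, 20335, 21978, 24578 and 31953 in air and at 47825, 35011, 32243, 41356 and 66720 under ozone (0.92 ± 0.22, adjusted p = 0.0243). Neither gene's groups overlapped, although the highest air and lowest ozone libraries of Glul differed by little. Slc25a25 rose by 1.35 ± 0.28 (adjusted p = 0.0147) and Cbs by 1.13 ± 0.28 (adjusted p = 0.0278). Muscle markers, 5 of the 7 listed being in the table, summed to 878 to 76758 in air and 486 to 10854 under ozone, with air 2 the highest. Without overlap between the groups, summed sinusoidal endothelial markers ran from 6283 to 8330 in air and from 10517 to 12901 under ozone. Also without overlap, T and B lymphocyte markers ran from 94.6 to 176 and from 56.7 to 91.4, and adrenal markers from 217 to 346 and from 129 to 198. The part of these markers was not tested. Without air 2 and air 5 together, the libraries highest in muscle markers, 0 of the 4 calls stood, in a fit of 3 air libraries added after the data were seen. Leaving out air 2, air 6, ozone 16 or ozone 23 alone left 2 calls, Gpt2 and Slc25a25. Cbs was also lost without air 9 or ozone 19, and Glul without air 5. Over such fits the limma adjusted p reached 0.0679 for Cbs and 0.0617 for Glul.

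In muscle 20 of the 40 genes were tested, and 11 rose and 1 fell, that is 60%. Of all 13043 genes tested there 43.7% were called, 21.6% as risen and 22.1% as fallen. The groups did not overlap in 7 of the 20 genes, against 24.3% of all. Of the 7 aminotransferase and glutamate genes 6 rose. Gpt2 ran from 894 to 2073 in air (median 1622) and was at 5409, 3436, 4971, 4788 and 6680 under ozone (log2 fold change 1.73 ± 0.21, adjusted p = 6.18e-05). Glul ran from 8582 to 24098 in air and was at 36544, 41707, 38136, 35434 and 43803 under ozone (1.53 ± 0.23, adjusted p = 2.34e-04). Slc25a25 ran from 780 to 2904 in air and was at 7808, 5225, 5233, 5788 and 5367 under ozone (2.18 ± 0.32, adjusted p = 2.75e-04). In each of these 3 genes every ozone library was above every air library, and the same held for Pc, Glud1 and Bckdha. Pc rose by 0.94 ± 0.12 (adjusted p = 1.00e-04) and Glud1 by 0.49 ± 0.11 (adjusted p = 0.00249). Slc25a15 moved the other way from liver. It ran from 591 to 960 in air muscles and was at 325, 420, 325, 329 and 293 under ozone, a log2 fold change of -1.07 ± 0.14 (adjusted p = 1.09e-04).

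Got1, Got2, Gpt, Bcat2, Bckdha and Oat also rose in muscle, by 0.41 to 0.83 on the log2 scale. Got2 had an adjusted p of 0.0496 and kept its call only on leaving out air 3 or air 9. Got1 was lost without air 4, 7 or 11 or ozone 15, 16 or 24, and Gpt without air 2, 4 or 7 or ozone 16 or 24. In the same libraries 6 of 8 stellate cell and fibroblast markers fell, 3 of 5 muscle markers rose and 1 fell, and summed sinusoidal endothelial markers ran from 1396 to 2046 in air and from 1017 to 1321 under ozone; their part in the muscle results was not tested. The genes Cps1, Tat, Tdo2, Arg1, G6pc and Mat1a were under the minimum mean of 10 in muscle and were not tested there.

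**Figure D5:**
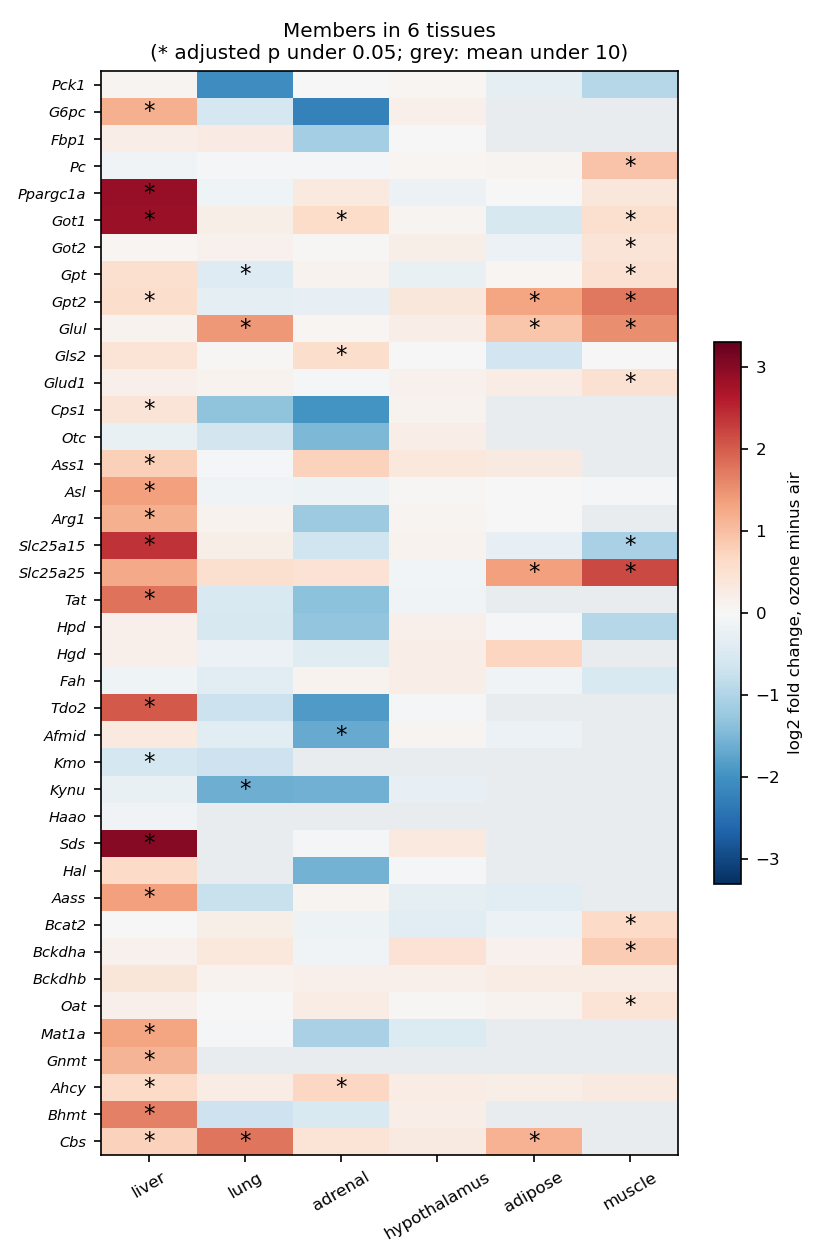
Log2 fold change, ozone minus air, of the 40 genes (rows) in the 6 tissues (columns), on a colour scale from blue (lower under ozone) to red (higher); asterisks mark an adjusted p under 0.05 and grey cells were not tested. Liver holds 19 asterisks, muscle 12, lung, adrenal and adipose 4 each and hypothalamus 0.

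Whether the liver response differed from that of another tissue was tested as the difference of the log2 fold changes, in which the separate scaling of each table cancels. Between liver and lung 7 of 36 genes differed, 6 of them with the higher response in liver and 1 with the lower, against 6.85% of all genes (3.36% higher, 3.49% lower). Against adrenal 6 of 37 differed, all higher in liver (all genes 10.3%, 6.18% higher and 4.09% lower). Against hypothalamus it was 6 of 37, all higher (all genes 4.56%, 3.14% higher and 1.42% lower). Against adipose it was 6 of 26, all higher (all genes 4.24%, 2.61% higher and 1.62% lower). Against muscle 8 of 20 differed, 5 higher and 3 lower (all genes 20.6%, 12.2% higher and 8.47% lower). The 5 higher include Hpd, whose muscle values were low, at 31.8 in air 4 and 12.4 or less in the other muscle libraries. Ppargc1a, Got1, Slc25a15 and Asl were higher in liver in all 5 of these comparisons. The difference for Slc25a15 was smallest against lung, 2.20 ± 0.17 (adjusted p = 2.85e-08), and largest against muscle, 3.46 ± 0.19 (adjusted p = 2.28e-11). For Got1 it ran from 2.25 ± 0.29 against adrenal to 3.39 ± 0.38 against adipose, and for Ppargc1a from 2.51 ± 0.36 against muscle to 3.07 ± 0.42 against hypothalamus. Asl differed by 1.33 ± 0.37 against hypothalamus (adjusted p = 0.0346) up to 1.54 ± 0.42 against adrenal. The comparisons share the same liver libraries, so they are not independent of each other.

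The genes with the lower response in liver were Glul against lung (-1.30 ± 0.19) and muscle (-1.41 ± 0.28), and Pc (-1.06 ± 0.17) and Gpt2 (-1.16 ± 0.28) against muscle. Tdo2 and Tat did not pass against lung (differences of 2.73 ± 1.39 and 2.30 ± 1.14) or adrenal (3.88 ± 1.52 and 3.15 ± 1.46), and their SE was several times that of Slc25a15. Lung Tdo2 was at 418 and 193 in air 2 and air 8, the lung libraries highest in hepatocyte markers, and at 103 or less elsewhere. Adrenal Tdo2 was at 475 and 305 in air 9 and air 11, the adrenal libraries highest in these markers, and at 236 or less elsewhere. Lung Mat1a was also highest in air 2 and air 8, at 1504 and 1124. Without adrenal air 8 the count against adrenal was 14 instead of 6, with G6pc, Arg1, Tat, Tdo2, Sds, Aass, Mat1a and Bhmt added. The added genes were each highest in adrenal air 9 and air 11, the libraries with the highest hepatocyte marker sums (16612 and 28776). Air 8 had the lowest sum of the air adrenals, 969. The part of hepatocyte reads in these differences was not tested. The Mat1a difference from lung passed in 7 of 24 fits that left out a library, and the Hpd difference from muscle in 4 of 22. The Asl difference passed in 13 of 24 such fits against hypothalamus and in 17 of 22 against adipose (adjusted p up to 0.0669 and 0.0647), where the Gls2 difference passed in 18 of 22. By edgeR on the recovered reads the Asl difference from hypothalamus had an adjusted p of 0.0658, and the Mat1a and Hpd differences did not pass either.

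The recovered reads per library ranged from 8854272 to 18848151, and from 12342650 to 16678455 in liver. Of 70 labelled samples 68 have a column; the libraries air 7 of adrenal and ozone 17 of muscle were not used here. Library numbers end at 12 in the air groups and start at 13 in the ozone groups, so any order of handling cannot be told apart from exposure. Since the labels do not state that each library came from another rat, the p-values cover only the scatter among these libraries.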

How the data were processed

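The genes and lists were chosen with earlier results of these data known. The authors deposited 1 table per tissue; each value is a normalised count (a signal never below 0), made with Partek and DESeq2 on rn6 per the submitters' processing notes. Counting settings were not given in the sources used here; Gapdh, which has many pseudogenes, averaged only 2.70 in liver, and values of genes with near-identical copies are uncertain. In each library the deposited signal values were whole multiples of 1 step, within 0.01, for 100% of values above 0, which gave back whole reads. Of 19465 entries, 24 with date-like names were removed. No 2 libraries of a group agreed within sampling noise (lowest chi-square per degree of freedom 8.76).

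The main test was limma 3.58.1 (R 4.3.3; trend, robust) on log2(value + 1), each tissue apart, for genes with a mean of at least 10, with Benjamini-Hochberg adjustment over all genes tested and a threshold of 0.05. Differences between tissues were fitted in 1 model of both tables. Alternatives were pseudocounts of 0.5 and 5, no filter, a minimum mean of 50, TMM scaling, array weights, edgeR 4.0.16 and DESeq2 1.42.0 on recovered reads, each library left out, and a replicate block. Scripts were tested on simulated data. Named in liver were all genes past the threshold and 9 core genes; elsewhere up to 6 called genes with a mean of at least 50; of related lists up to 4. No proteins were shown. Values of some genes of the related lists are not reported here.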

Additional observations from a re-analysis of the deposited data

Results flagged for a closer look

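For independent groups of normally distributed values, chance would leave 1 library far from the others in about 5% of groups. The 78 groups of member values examined here share libraries, so that share is no measure of an excess. Such a stray library stood in 9 of the 78 groups. In liver these were air 1 for Cps1 (136416, next 113163) and Otc (25610, next 9857), air 9 for Kmo (949, next 1254), and ozone 18 for Ass1 (39060, next 24166), Gnmt (4517, next 1973) and Bhmt (119402, next 80073). In lung it was ozone 13 for Glul (9488, next 11166). In muscle these were ozone 15 for Slc25a15 (420, next 329) and ozone 13 for Slc25a25 (7808, next 5788).

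The log2 response differed between liver and another tissue, by a test of the difference itself, in 33 cases, given here as liver minus the other tissue. Slc25a15 differed by 2.20 from lung, 3.05 from adrenal, 2.28 from hypothalamus, 2.65 from adipose and 3.46 from muscle. Got1 differed by 2.66, 2.25, 2.76, 3.39 and 2.32 in the same order, and Ppargc1a by 3.01, 2.57, 3.07, 2.89 and 2.51. Asl differed by 1.48, 1.54, 1.33, 1.37 and 1.43. Against lung, Gpt (0.96), Mat1a (1.36) and Glul (-1.30) also differed. Against adrenal these were Gpt2 (0.84) and Afmid (1.98), against hypothalamus Sds (2.68) and Aass (1.65), and against adipose Gls2 (1.08) and Aass (1.70). Against muscle they were Pc (-1.06), Gpt2 (-1.16), Glul (-1.41) and Hpd (1.11). Hpd reached the minimum mean of 10 in muscle only through its air libraries. Its muscle value was 31.8 in air 4 and 12.4 or less in the other muscle libraries. Without muscle air 4 Hpd was under that mean and was not tested. Its log2 fold change in liver was 0.18.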

How the results depend on the processing

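The liver count stayed between 13 and 21 genes over all settings, lowest without air 6 or ozone 14, and no called value changed its sign under any alternative run (Fbp1 and Otc, not called, changed sign without 1 library). Other counts moved by over 1.5 times as follows. With a minimum mean of 50, lung went from 4 to 2. Array weights gave 7 in lung, 7 in adrenal (from 4) and 1 in hypothalamus (Bckdha), and DESeq2 also gave 1 in hypothalamus. Adipose went from 4 to 0 without air 2 and air 5. The count of differences from adrenal went from 6 to 10 with edgeR, and from muscle from 8 to 16 with no filter. Leaving out 1 library each gave 2 to 7 in lung, 2 to 4 in adipose and 6 to 14 for liver minus adrenal. The causes were not tested. For called single genes and differences, 129 alternative values kept the direction but lost the call.

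The block by replicate number could be fitted only between tissues, since air and ozone libraries of a tissue share no number. With the replicate block the counts of differing genes were 6 for lung, 8 for adrenal, 6 for hypothalamus, 6 for adipose and 8 for muscle; Mat1a was lost against lung, and Sds and Aass gained against adrenal. Same-numbered libraries did not deviate together throughout: correlations over 0.1 were found in 2 of 10, 5 of 7, 2 of 8, 3 of 5 and 1 of 5 pairs in that order. The highest was 0.508, in adrenal. Tissues of 1 rat need not deviate together, so these correlations cannot show whether equal numbers mark the same rat. The labels do not state it, and the main fit used no pairing.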

Other observations

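The related lists were also read outside the liver, with genes chosen after their values were seen. In lung 5 of 10 glycolysis and pyruvate oxidation genes rose (50%, against 9.51% of all genes risen there), among them Pfkfb3, from 1187 ± 231 to 3242 ± 176 (log2 fold change 1.47 ± 0.11, limma adjusted p = 1.46e-06), and Pdk4, which restrains pyruvate oxidation, from 291 ± 186 to 656 ± 196 (1.39 ± 0.41, adjusted p = 0.0325). In muscle Foxo1 went from 519 ± 46.6 to 4166 ± 981 (2.97 ± 0.15, adjusted p = 3.30e-08) and Pdk4 from 9664 ± 4438 to 26452 ± 4090 (1.57 ± 0.27, adjusted p = 7.22e-04). Adipose Foxo1 went from 1789 ± 389 to 4240 ± 743 (1.26 ± 0.18, adjusted p = 0.00162), and Irs1 and Irs2, the substrates of the insulin receptor, went from 812 ± 326 to 272 ± 73.0 and from 1183 ± 225 to 591 ± 129.

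In hypothalamus, where none of the 40 genes was called by limma, Gpd1 rose from 972 ± 193 to 3289 ± 344 (log2 fold change 1.78 ± 0.14, adjusted p = 2.26e-05) and Slc25a13, the aspartate-glutamate carrier, from 81.5 ± 22.9 to 189 ± 35.1 (1.22 ± 0.19, adjusted p = 0.00438). In liver Onecut1, a hepatocyte transcription factor, ran from 28.3 to 542 in air and from 1.27 to 40.1 under ozone, a log2 fold change of -3.28 ± 0.72 (adjusted p = 0.00813).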
